A study of Mus musculus with 10 samples.

Results

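The fast and slow myosin light chains of skeletal muscle were followed here as 5 genes, Mylpf, Myl1, Myl2, Myl3 and Myl6b, in a comparison of muscle with and without myostatin. They were taken as every probe set (a group of short probes against a transcript) whose platform annotation gave a member's symbol and no other, which found 7 of the 45101 probe sets on the arrays and 5 of 18194 annotated genes. Mylpf, Myl1, Myl2 and Myl6b had 1 probe set each and Myl3 had 3. The arrays measured RNA of the gastrocnemius muscle in the calf, taken at 7.5 months of age from males of C57BL/6 background. The 5 knockout mice (Floxed_Mstn, genotype label Mstn ko) carried floxed myostatin genes, which Cre can delete, and the 5 control mice (WT_Mstn, labelled wild-type) had normal myostatin genes. All 10 mice carried the CAGG-CreER transgene, a tamoxifen-inducible Cre under a promoter active in most cell types, and all received 8 tamoxifen injections starting at 4 months of age. The promoter therefore does not restrict the deletion to muscle. No probe set is named Mstn in the annotation, so the deletion has no check from its own transcript here. Mice are called knockout 1 to 5 and control 1 to 5 after their labels.

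Myosin is the motor of the sarcomere. The neck of each myosin head binds an essential and a regulatory light chain, which stiffen the lever arm and tune its speed and calcium sensitivity. Fast fibres use Mylpf as regulatory and Myl1 as essential light chain, while slow fibres, like the ventricle of the heart, use Myl2 as regulatory and Myl3 as essential light chain. Myl6b encodes an essential light chain found outside muscle as well as in slow muscle. The mouse gastrocnemius is made mostly of fast fibres with a smaller slow portion, and myostatin, a secreted factor, holds back its growth.

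None of the 5 genes was called different between knockout and control muscle. The slow pair varied more than the fast pair: Myl2 spanned 1.77-fold among the 10 mice and the 3 Myl3 probe sets 1.67-fold to 1.94-fold. Among probe sets of every brightness, their spread within groups (pooled SD of log2 values) was ordinary. It exceeded that of 47.2% of the probe sets tested for Myl2 and of 51.6% to 65.5% for the Myl3 sets. It was wider than in skeletal muscle markers of similar brightness (median log2 level 14.55), whose median SD was 0.0514. Myl2 had 0.229 and the brightest Myl3 set 0.249. Myl2 and Myl3 each varied in step with the slow myosin heavy chain Myh7. Their relation to each other passed adjustment over 20 relations by Pearson's r but not by Spearman's rho. In whole muscle, variation between mice in the share of slow fibres and in RNA of these genes per slow fibre cannot be told apart. The fast pair, Mylpf and Myl1, spanned 1.11-fold and 1.15-fold over the same mice. The light chain with the most displaced value in knockouts lay outside the 5: Myl4, the light chain of embryonic muscle and the atrium, was 2.17-fold lower, with an adjusted p of 0.137 (limma). Every knockout lay below every control for Myl4, as in 0.893% of all probe sets tested. A second Myl4 probe set stayed near the lowest values of the arrays in both groups. Values below are log2 intensities unless stated, and p values are adjusted by Benjamini-Hochberg over all 21154 probe sets tested.

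The promoter windows of the slow pair and of Mylpf are shown because Myl2 and Myl3 varied together across mice, and Mylpf stands for the fast pair. Each window runs from 250 bases before to 50 after an annotated start (RefSeq, build GRCm38.p6, plus strand, 5′ to 3′). Capitals mark matches on either strand to 4 motifs. The E-box, bound by myogenic bHLH factors, was searched as CANNTG. The MCAT motif, bound by TEAD factors, was searched as CATTCC. The others were the MEF2 motif and the CArG box, which binds SRF. Myl2 has 2 windows, at chr5:122092474-122092773 and chr5:122092939-122093238, Myl3 has chr9:110763428-110763727, and Mylpf has chr7:127211358-127211657.
Myl2 window 1: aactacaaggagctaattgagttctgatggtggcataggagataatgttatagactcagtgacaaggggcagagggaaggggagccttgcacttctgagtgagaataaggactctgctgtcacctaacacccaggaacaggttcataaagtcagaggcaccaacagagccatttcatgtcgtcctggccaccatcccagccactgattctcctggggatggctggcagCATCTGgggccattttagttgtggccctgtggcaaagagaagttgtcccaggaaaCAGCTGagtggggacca
Myl2 window 2: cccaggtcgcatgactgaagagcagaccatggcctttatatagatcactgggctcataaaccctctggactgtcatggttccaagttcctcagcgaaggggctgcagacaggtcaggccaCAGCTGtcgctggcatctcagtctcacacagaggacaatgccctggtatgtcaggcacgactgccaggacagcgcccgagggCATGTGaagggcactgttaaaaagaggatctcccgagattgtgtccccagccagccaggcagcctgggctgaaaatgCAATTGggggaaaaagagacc
Myl3: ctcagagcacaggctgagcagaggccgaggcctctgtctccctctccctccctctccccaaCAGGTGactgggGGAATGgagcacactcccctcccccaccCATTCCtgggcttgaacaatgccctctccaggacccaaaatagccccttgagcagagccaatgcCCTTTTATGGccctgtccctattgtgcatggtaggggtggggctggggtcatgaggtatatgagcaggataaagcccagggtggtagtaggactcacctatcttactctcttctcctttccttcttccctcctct
Mylpf: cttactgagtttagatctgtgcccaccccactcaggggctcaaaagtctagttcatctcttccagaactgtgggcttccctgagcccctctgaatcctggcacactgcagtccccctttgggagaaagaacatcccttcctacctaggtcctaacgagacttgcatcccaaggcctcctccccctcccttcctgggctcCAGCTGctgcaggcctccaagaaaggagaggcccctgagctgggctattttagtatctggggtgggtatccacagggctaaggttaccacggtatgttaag

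The Myl3 window held 1 E-box, 2 MCAT matches and 1 CArG match 85 bases before the start. The Myl2 windows held 2 and 3 E-boxes and no match to the other 3 capitalised motifs, and the Mylpf window held 1 E-box, the palindrome CAGCTG, and none of the others. Of all 32851 windows of this length in the table, 72.3% held an E-box, 14.7% an MCAT match, 3.19% a MEF2 match and 1.63% a CArG match on either strand. The letters TATAA, on either strand, occurred once in each Myl2 window and in neither the Myl3 nor the Mylpf window, against 24.9% of all windows. CAGAC, a Smad box, occurred 2 times in the second Myl2 window and not in the other 3 windows printed, against 49.6% of all windows. The Smad factors carry the myostatin signal to the genome. The Mylpf window starts from a site 2760 bases inside the annotated gene, and the second Myl2 window from a site 465 bases inside its gene. The Myl1 window, not printed, starts from a site 2876 bases inside its gene, so these are not the outermost starts. The matches are letters in a window and carry no measure of binding. In the windows of the remaining members, Myl1 had 1 E-box, 1 MCAT match and 3 Smad boxes, and Myl6b had 2 E-boxes and 2 Smad boxes.

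All 7 light chain probe sets passed the filter, which asked for a log2 intensity averaging at least 4 across the 10 arrays. At an adjusted p under 0.05 (limma), 0 of the 7 were called, where 0.0993% of all probe sets tested were called (0.052% higher and 0.0473% lower in knockouts). At an unadjusted p under 0.05 there were also 0 of 7, against 7.69% of all probe sets. The groups overlapped in all 7, while 2.06% of all probe sets had groups that did not overlap. The median difference over the 5 genes, each by its brightest probe set, was -0.04, beside a median of -0.0029 over all probe sets tested.

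**Figure D1:**
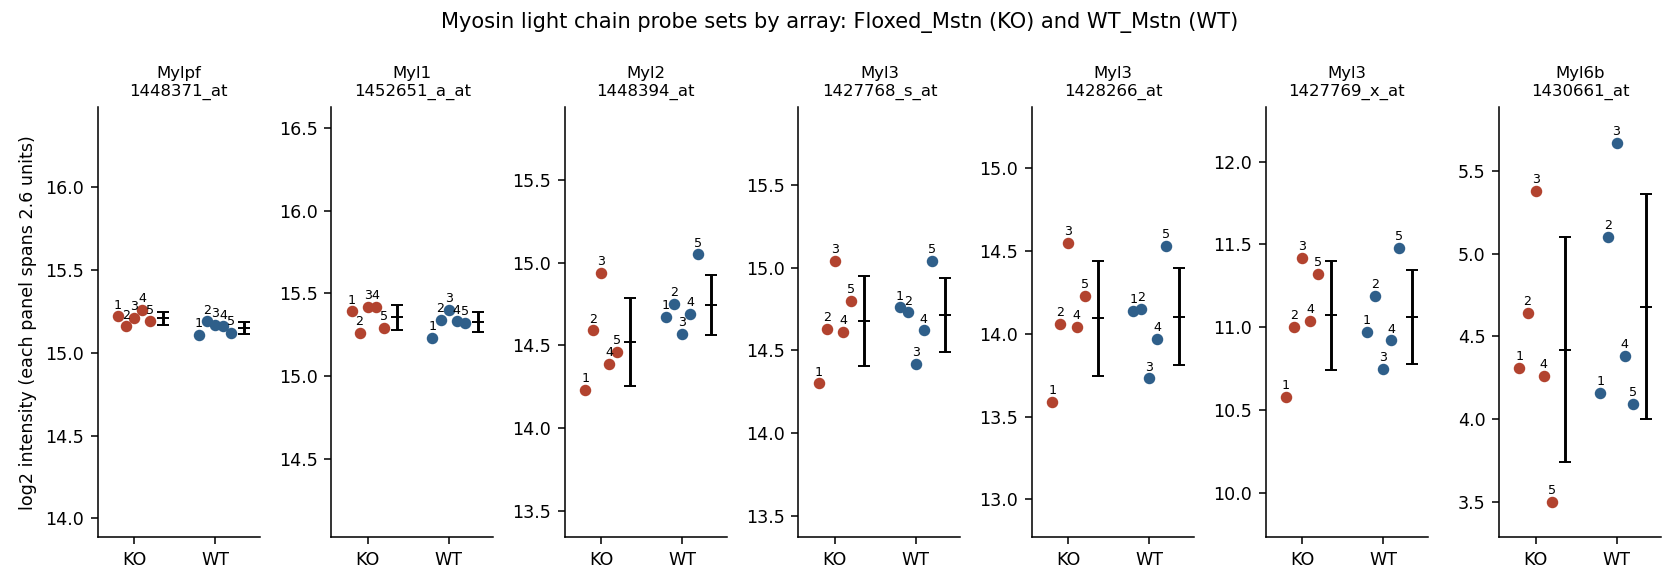
Log2 intensity (vertical axis, 2.6 units in every panel) of the 7 light chain probe sets in Floxed_Mstn (KO, red) and WT_Mstn (WT, blue) arrays, with the replicate number beside each point and the mean and SD as black bars. The fast chains Mylpf and Myl1 form tight bands, the slow chains Myl2 and Myl3 spread over 0.74 to 0.96 units, and Myl6b spreads most near the bottom of the scale.

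Mylpf, the fast regulatory light chain, had 15.22, 15.16, 15.21, 15.26 and 15.19 in knockouts 1 to 5, against 15.11, 15.19, 15.17, 15.16 and 15.12 in controls 1 to 5. Knockouts 1, 3 and 4 lay above every control, while knockouts 2 and 5 did not exceed the highest control by this rounding. The difference was 0.06 ± 0.05 (SE, n = 5 each, limma adjusted p = 0.894), with a 95% interval from -0.06 to 0.18, or 0.959-fold to 1.14-fold. The SE that limma gave is wider than the mice themselves show (SD 0.0368 in knockouts and 0.034 in controls), because limma draws the variance of each probe set toward a common value. With a variance trend and a robust prior together, the unadjusted p was 0.0311 and the adjusted p 0.508. Mylpf had a smaller spread within groups than all but 0.714% of the probe sets tested.

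Myl1 encodes the fast essential light chains MLC1f and MLC3f from alternative starts, and its single probe set does not part them here. It had 15.39, 15.26, 15.42, 15.42 and 15.29 in knockouts, against 15.23, 15.34, 15.40, 15.33 and 15.32 in controls. The highest values were in knockouts 3 and 4 and the lowest in control 1, and the groups overlapped almost fully. The difference was 0.03 ± 0.06 (SE, n = 5 each, limma adjusted p = 0.98), with an interval from 0.925-fold to 1.13-fold, and after quantile normalization its sign turned (-0.0068). Myl1 lies on chromosome 1, which also carries Mstn, with 104 protein-coding genes between them in the gene order of GRCm38.p6. Mylpf and Myl1 lay 0.63 to 0.93 below the brightest probe set of their array, and whether signal is compressed there was not tested.

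Myl2, the slow regulatory light chain, had 14.23, 14.59, 14.94, 14.39 and 14.46 in knockouts, against 14.67, 14.75, 14.57, 14.69 and 15.05 in controls. Knockouts 1, 4 and 5 lay below every control, knockout 2 lay between the lowest controls, and knockout 3 was second only to control 5. Means were 14.52 ± 0.269 in knockouts and 14.74 ± 0.181 in controls (SD, n = 5 each). The difference of -0.22 ± 0.14 (SE, limma adjusted p = 0.797) had an interval from 0.69-fold to 1.06-fold. Myl2 had the lowest adjusted p of the 7 probe sets in this fit. Leaving out each array in turn moved the difference between -0.33 (without knockout 3) and -0.15 (without control 5), never past the threshold.

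Myl3, the slow essential light chain, was read by 3 probe sets, and the brightest had 14.30, 14.63, 15.04, 14.61 and 14.80 in knockouts, against 14.76, 14.73, 14.42, 14.62 and 15.04 in controls. Knockout 3 and control 5 were highest and the same to 2 decimals, knockout 1 was lowest, and the groups covered nearly the same range. The difference was -0.04 ± 0.15 (SE, n = 5 each, limma adjusted p = 0.991), with an interval from 0.771-fold to 1.23-fold. The next brightest had 13.59, 14.06, 14.55, 14.04 and 14.23 in knockouts, against 14.14, 14.15, 13.73, 13.97 and 14.53 in controls. The dimmest ran from 10.58 in knockout 1 to 11.42 in knockout 3 among knockouts, against 10.75 in control 3 to 11.48 in control 5 among controls. These gave differences of -0.0074 (limma adjusted p = 0.999) and 0.0099 (0.998). The array's naming marks the brightest and the dimmest (suffixes _s_at and _x_at) as holding probes that can bind several transcripts. All 3 placed the mice in nearly the same order: over the 10 arrays the brightest correlated with the other two at Pearson's r of 0.995 and 0.955, given as a description of probe sets that share a target.

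Myl6b was close to background. It had 4.31, 4.64, 5.38, 4.26 and 3.50 in knockouts, against 4.16, 5.10, 5.67, 4.38 and 4.09 in controls, where the lowest value of any probe set on an array was 1.83 to 1.92. Knockout 5 fell below the filter level of 4, and the mean over all arrays kept the probe set in the test. The difference of -0.26 ± 0.39 (SE, n = 5 each, limma adjusted p = 0.968) had an interval from -1.14 to 0.61, the widest of the 7. Its spread within groups exceeded that of 93.2% of the probe sets tested.

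**Figure D2:**
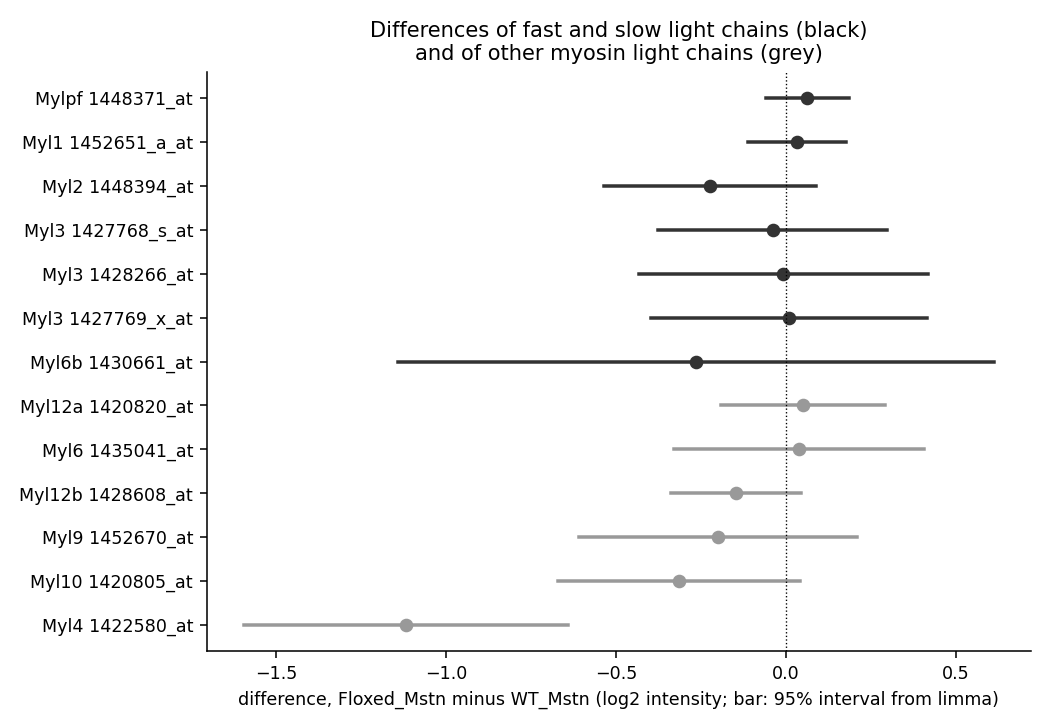
Difference in log2 intensity, Floxed_Mstn minus WT_Mstn (horizontal axis), with the 95% interval from limma, for the 7 probe sets of the fast and slow light chains (black) and for the brightest probe sets of 6 other myosin light chains (grey). All black intervals include 0, that of Mylpf is narrowest and that of Myl6b widest, and Myl4 lies lowest at -1.12.

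The slow pair varied across individual mice together with other slow fibre genes. Over the 10 arrays Myl2 and Myl3 correlated at Pearson's r of 0.833 (permutation p = 0.00376, adjusted 0.0251 over 20 relations) and Spearman's rho of 0.733 (permutation p = 0.0197, adjusted 0.0946). Leaving out the 2 arrays with the most extreme Myl3, r was 0.609, and with each group centred on its own mean it was 0.905. Myl2 correlated with Myh7, the slow myosin heavy chain, at r of 0.908 (permutation p = 8e-05, adjusted 0.0008) and rho of 0.879 (permutation p = 0.00148, adjusted 0.0148), with r of 0.839 once the 2 arrays of most extreme Myh7 were left out. For Myl3 and Myh7, r was 0.915 (permutation p = 6e-05, adjusted 0.0008) and rho 0.939 (permutation p = 0.00019, adjusted 0.0038), with r of 0.902 without 2 arrays. Centred within groups, the r values with Myh7 were 0.901 for Myl2 and 0.948 for Myl3. These relations were chosen after the values were seen, and they cover the 10 pairs of members and each member against Myh7 and against the hybridisation controls.

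Myh7 itself had 12.33, 13.68, 14.37, 13.57 and 13.78 in knockouts, against 13.81, 14.07, 13.46, 13.77 and 14.67 in controls. Knockout 1 was lowest and control 5 highest, as for Myl2, and the span of 2.34 over the mice was wider than the 0.82 of Myl2 and the 0.74 of Myl3. Myl2 and the brightest Myl3 set lay 0.97 to 1.82 below the brightest probe set of their array, and Myh7 1.34 to 3.71. Whether compressed signal narrowed these spans was not tested. Of the 12 slow fibre partners listed (Myh7, Myh7b, troponins, Tpm3, calcium handling and sarcomere genes), 9 were lowest in knockout 1 and 8 were highest in control 5. Between groups, 10 of the 12 had lower and 2 higher values in knockouts, with a median of -0.31, but 0 passed (limma, lowest adjusted p = 0.825) and 0 reached an unadjusted p under 0.05. The members of lowest p were Pln, the inhibitor of the slow calcium pump (-0.60, limma adjusted p = 0.825), Myh7b (-0.44, adjusted 0.839), Atp2a2, the slow calcium pump (-0.28, adjusted 0.875), and Myh7 (-0.41, adjusted 0.889). Much of this rests on knockout 1: without it Pln had -0.34, Myh7b -0.23, Atp2a2 -0.07 and Myh7 -0.11. Myh7 had -0.23 and Myh7b -0.22 without control 5, Pln -0.33 without control 1, and Atp2a2 -0.43 without knockout 3.

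**Figure D3:**
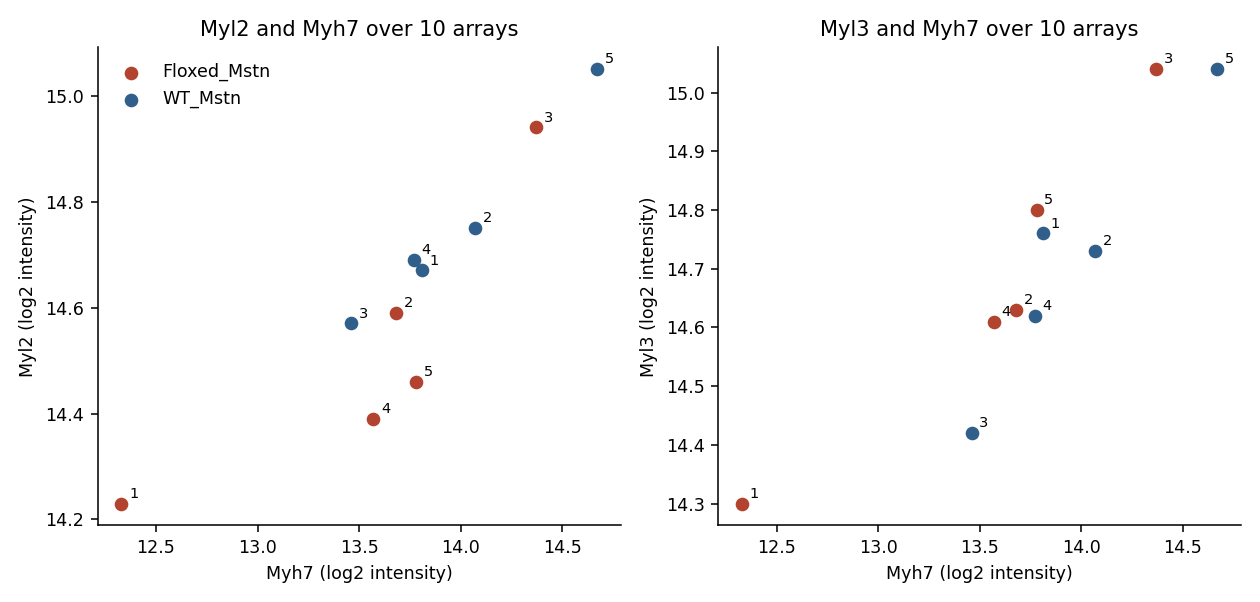
Log2 intensity of Myl2 (left) and Myl3 (right) on the vertical axes against that of Myh7 on the horizontal axes, 1 point per array with its replicate number, in Floxed_Mstn (red) and WT_Mstn (blue). Knockout 1 lies at the lower left and knockout 3 and control 5 at the upper right in both panels.

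No relation of the fast pair passed adjustment. Mylpf and Myl1 correlated at r of 0.709 (permutation p = 0.0227, adjusted 0.0907) and rho of 0.721 (permutation p = 0.0236, adjusted 0.0946), with r of 0.55 once the 2 arrays of most extreme Myl1 were left out. Centred within groups, their r was 0.774. By rho, the slow pair Myl2 and Myl3 had the same adjusted permutation p of 0.0946. Against Myh7, r was -0.389 for Mylpf (permutation p = 0.263, adjusted 0.584; rho -0.406, permutation p = 0.246, adjusted 0.547) and -0.195 for Myl1 (permutation p = 0.608, adjusted 0.811; rho -0.2, permutation p = 0.583, adjusted 0.757). The 13 fast fibre partners listed had a median spread within groups of 0.051, against 0.524 for the slow partners and 0.242 over all probe sets tested. They lay 0.32 to 2.23 below the brightest probe set of their array, and whether signal there is compressed, which would narrow the spread, was not tested. Of these 13, 11 had higher and 2 lower values in knockouts, with a median of 0.02, and 0 passed or reached an unadjusted p under 0.05 (limma, lowest adjusted p = 0.848). Actn3, the fast fibre actinin, had 0.08 (limma adjusted p = 0.848) and Myoz1, a Z-disc protein of fast fibres, had 0.05 (adjusted 0.948). Tnnt3, the fast troponin T, and Pvalb, a calcium buffer of fast fibres, had 0.05 (adjusted 0.961) and 0.04 (adjusted 0.967).

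**Figure D4:**
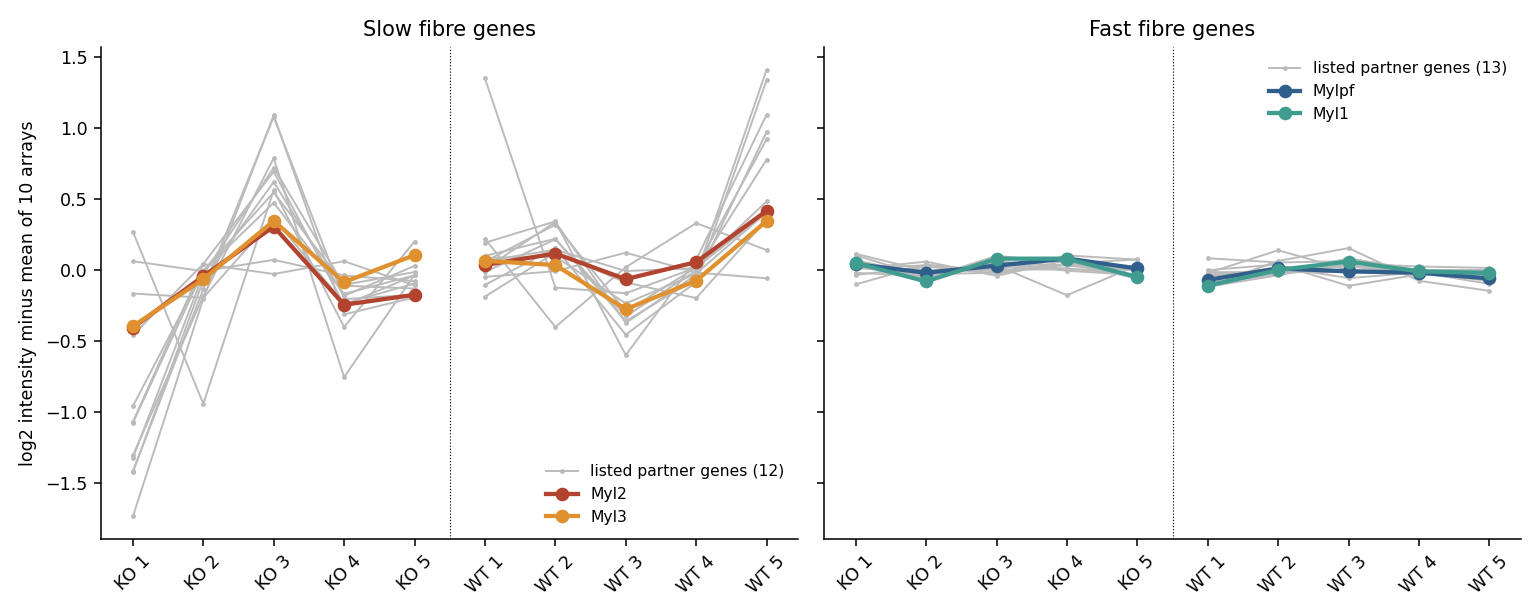
Log2 intensity minus the gene's mean over the 10 arrays (vertical axis) in each Floxed_Mstn (KO) and WT_Mstn (WT) array, for the slow pair with 12 listed slow fibre genes (left, grey) and the fast pair with 13 listed fast fibre genes (right, grey). Lines only join the values of a gene, since replicates have no order. Myl2, Myl3 and 9 of the 12 slow partners are lowest in knockout 1. Of these partners, 8 of the 12 are highest in control 5 and 2 in knockout 3. Csrp3 and Mybpc1 are above their mean in knockout 1. The fast genes stay near 0.

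By a rule that took the 3 non-member genes of highest Pearson's r over the 10 arrays, among 10317 genes, Myl2 was most like Tnni1 (0.951), Tpm3 (0.934) and Ift81 (0.932). Myl3 was most like Lsm3 (0.966), Tpm3 (0.939) and Tnnc1 (0.933). Tnni1, Tpm3 and Tnnc1 encode the slow troponin I, a slow tropomyosin, and the troponin C of slow and cardiac muscle. Mylpf was most like Car3 (0.936), Shoc2 (0.927) and Vcl (0.917), and Myl1 most like Synpo2 (0.954), ND5 (0.94) and Csnk1a1 (0.932). Myl6b was most like Brdt (0.935), Hoxc8 (0.898) and Vangl2 (0.885). These genes were picked as the highest of many, so their r values describe these arrays and have no p. Tnni1 spanned 8.94 to 11.76 in knockouts and 10.30 to 12.08 in controls, and Lsm3 9.06 to 9.33 in knockouts and 9.03 to 9.40 in controls, so genes alike in pattern differed widely in amplitude.

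Myl2 and Myl3 are also the light chains of the cardiac ventricle, and markers of heart muscle were checked beside them. Tnni3 (2.21 in both groups) and Nppb (2.11 in knockouts and 2.12 in controls) lay near the lowest values of the arrays, and Nppa averaged 2.38 in knockouts and 2.59 in controls. Myh6, the cardiac myosin heavy chain, was below the filter but not flat, running between 2.50 and 4.24 in knockouts (median 3.93), against 2.88 and 5.51 in controls (median 3.97). These are values of its brightest probe set, and its other one averaged 2.43 in knockouts and 2.40 in controls. Like Myl2, Myh6 was lowest in knockout 1 and highest in control 5, and so was Tnnt2, the cardiac and embryonic troponin T, at 5.17 to 7.41 in knockouts and 6.92 to 8.37 in controls. The part of these markers in the values of Myl2 and Myl3 was not tested. Of the 9 markers of cardiac and developing muscle, 4 passed the filter, 2 with higher and 2 with lower values in knockouts, and 0 were called (limma, 2 at an unadjusted p under 0.05). The 8 skeletal muscle markers, Acta1 and Ckm among them, were all well above the filter level with a median of 14.55, and their summed intensity was 168000 to 176000 in knockouts and 170000 to 172000 in controls. Of these 8, 6 had higher and 2 lower values in knockouts, with a median of 0.0044 and 0 called (limma, 2 at an unadjusted p under 0.05). Those 2 were Neb (0.2107, limma adjusted p = 0.6185) and Mb (-0.138, adjusted 0.6215). For Mb every knockout lay below every control, as in 0.893% of all probe sets.

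Of 8 other myosin light chain genes listed, 7 had a probe set and 6 passed the filter, 2 with higher and 4 with lower values in knockouts, a median of -0.17 and 0 called (limma, 1 at an unadjusted p under 0.05). That gene was Myl4. It had 8.32, 8.44, 8.99, 8.59 and 9.29 in knockouts, against 10.27, 10.04, 9.48, 9.62 and 9.81 in controls. Every knockout lay below every control, as in 0.893% of all probe sets. The difference was -1.12 ± 0.21 (SE, n = 5 each, limma adjusted p = 0.137), with an interval from -1.60 to -0.64. Its limma adjusted p was 0.0442 where the variance trend and the robust prior were used together, 0.0319 where arrays were weighted, and from 0.0511 to 0.379 under the other alternatives. Its second probe set stayed at 2.14 in both groups, near the lowest values of the arrays, and did not enter the test.

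Myl10, a regulatory light chain first described in lymphoid cells, had -0.31 (limma adjusted p = 0.722). Myl12b, a regulatory light chain of non-muscle myosin, had -0.15 (adjusted 0.772), and Myl9, the regulatory light chain of smooth muscle, had -0.20 (adjusted 0.903). The second Myl12b probe set had 0.09 (adjusted 0.986), and the mean over both had -0.03. Myl9 had -0.09 without knockout 1, -0.31 without knockout 4 and -0.31 without control 3. Myl7, the atrial regulatory light chain, lay at 2.22 in knockouts and 2.21 in controls, below the filter. Among kinases and phosphatase subunits that act on light chains, 7 of 8 passed the filter, with 3 higher and 4 lower values in knockouts, a median of -0.14 and 0 called (limma, 2 at an unadjusted p under 0.05). Mylk, the myosin light chain kinase of smooth muscle and non-muscle cells, had 11.20, 10.78, 11.17, 11.17 and 11.10 in knockouts, against 11.42, 11.31, 11.51, 11.43 and 11.47 in controls, groups that did not overlap. Knockouts lay below controls without overlap in 0.893% of all probe sets. The Mylk difference was -0.35 ± 0.09 (SE, n = 5 each, limma adjusted p = 0.347). Its second tested probe set had -0.33 (adjusted 0.902), and the mean over both had -0.34 (adjusted 0.674). Mylk2, the kinase that phosphorylates the regulatory light chain in skeletal muscle, had -0.16 (adjusted 0.885), with -0.10 without knockout 1 and -0.09 without knockout 3. The myosin phosphatase targeting subunits Ppp1r12b and Ppp1r12a had 0.23 (adjusted 0.613) and -0.14 (adjusted 0.722).

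Markers of smooth muscle are given beside Mylk and Myl9. Of 7 markers 6 passed the filter, 1 with a higher value (Smtn, 0.30) and 5 with lower values in knockouts, a median of -0.39 and 0 called (limma). Cnn1 lay near the lowest values, at 2.17 to 2.18 in knockouts and 2.17 to 2.44 in controls. Their summed intensity was 3310 to 4540 in knockouts and 4060 to 5000 in controls, and their part in the values of Mylk and Myl9 was not tested. Markers of other cells had lower values in knockouts for 6 of 6 tendon genes (median -0.86), 4 of 4 nerve sheath genes (-0.35), 6 of 6 fibroblast genes (-0.38), 5 of 6 endothelial genes (-0.21) and 6 of 6 macrophage genes (-0.435), and for 2 of 4 adipocyte genes (0.0036), with 0 called in any of these lists (limma). At an unadjusted p under 0.05 there were 6, 2, 4, 2, 0 and 0 genes in these lists in the same order, and 4 among the smooth muscle markers. Of all 21154 probe sets tested, 7.69% reached this level, and 10409 had higher and 10745 lower values in knockouts. The lists were chosen with earlier results of these data known, so their counts are a description and not an independent test.

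Of 16 regulators of fibre type listed, 15 were tested, 8 with higher and 7 with lower values in knockouts, a median of 0.0067 and 0 called (limma, 3 at an unadjusted p under 0.05). Tead1, a TEAD factor that binds the MCAT motif, had 11.97, 11.83, 11.96, 12.01 and 11.92 in knockouts, against 12.05, 12.12, 12.12, 12.24 and 12.32 in controls. Every knockout lay below every control, as in 0.893% of all probe sets, and the difference was -0.23 ± 0.07 (SE, n = 5 each, limma adjusted p = 0.469). The second Tead1 probe set had -0.15 (adjusted 0.92). Prox1, a homeodomain factor of slow fibres, had -0.61 (adjusted 0.516), Vgll2, a TEAD cofactor, -0.27 (adjusted 0.645) and Tbx15, a T-box factor of glycolytic fibres, 0.37 (adjusted 0.748). The second Tbx15 probe set had 0.66 (adjusted 0.656). Dimmer probe sets of Nfatc1, another listed regulator, had -0.495 (adjusted 0.159) and -0.299 (adjusted 0.576), against -0.13 (adjusted 0.923) for its brightest. Dimmer tested sets of Mef2a had -0.121 to 0.208 (lowest adjusted p 0.554, limma), and those of Sox6 0.093 to 0.382 (lowest 0.846). Nfatc1, Mef2a and Sox6 lie outside the rule by which genes were named.

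The bacterial hybridisation controls, RNA added to each array and read by 7 probe sets, were highest in knockout 3, knockout 1 and control 3, at 13.46, 13.36 and 13.34. Their mean correlated with Myl2 at r of 0.0907 (permutation p = 0.805, adjusted 0.844; rho 0.0788, permutation p = 0.839, adjusted 0.839) and with Myl3 at -0.192 (permutation p = 0.592, adjusted 0.811; rho -0.297, permutation p = 0.404, adjusted 0.586). For Myl1 r was 0.721 (permutation p = 0.0196, adjusted 0.0907; rho 0.721, permutation p = 0.0232, adjusted 0.0946) and 0.576 without 2 arrays, and for Myl6b 0.685 (permutation p = 0.0296, adjusted 0.0987; rho 0.552, permutation p = 0.106, adjusted 0.283). Without the 3 arrays of highest controls, Myl2 had -0.31 (limma adjusted p = 0.371) and the brightest Myl3 probe set -0.11 (adjusted 0.733). The 3′ minus 5′ difference of Gapdh, a sign of RNA integrity, was 0.45 ± 0.031 in knockouts and 0.49 ± 0.026 in controls (SD, n = 5 each, exact permutation p = 0.0317, two-sided, unadjusted). By the same test, that of beta-actin was 1.40 ± 0.047 in knockouts and 1.47 ± 0.057 in controls (exact permutation p = 0.0873). The hybridisation controls were 13.15 ± 0.25 in knockouts and 13.12 ± 0.14 in controls (exact permutation p = 0.786).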

How the data were processed

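RNA of 10 gastrocnemius muscles was measured on arrays, with biotinylated cDNA made by NuGEN kits from Trizol extracts per the labels' protocols. The deposited table gives a linear intensity per probe set, which the authors made with GCRMA (background correction from probe sequence, normalization between arrays and summary of probes) per the submitters' processing notes. Which GCRMA version and options they ran is not given in the sources used here. Here the log2 was taken with no further normalization. Arrays have no read depth, so their number limits the precision. The labels do not say how the 5 numbered samples of a group were taken beyond their being separate samples.

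Platform annotation gave 1 symbol to 34958 probe sets and several to 932, which were never used for a named gene. With 64 control probe sets left out and a mean log2 of 4 or more required, 21154 probe sets entered limma 3.58.1 (R 4.3.3, lmFit and eBayes, two-sided), checked on simulated data. The brightest probe set represented a gene. The members and all 14 lists (117 genes, 112 with a probe set) were chosen with earlier results of these data known. Members, up to 4 genes of lowest p per list of muscle or light chain genes and the 3 most alike genes per member were named. Cell marker lists are given as counts, with some of their genes named beside these. Correlations used 100000 permutations and array quality values all 252 assignments. Alternatives covered filters, normalization, variance model, array weights, the hybridisation control covariate, the replicate block, arrays left out, values below log2 4 raised to 4, and the mean of a gene's probe sets.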

Additional observations from a re-analysis of the deposited data

Results flagged for a closer look

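Among 54 groups of 5 arrays (knockouts and controls for 27 probe sets, those of the 5 light chains and of the list genes named by rule, so without Actc1 and Tnnt2), 6 held an array far from the other 4, where chance flags about 1 in 20 groups. None was a probe set of the 5 light chains. Myh7b was 5.54 in knockout 1, where the other knockouts reached 6.67, the same mouse in which Myl2 and Myl3 were lowest. Prox1 was 8.03 in control 5, against 7.22 to 7.42 in the other controls, and Myl2 was highest there. Mylk was 10.78 in knockout 2, against 11.10 to 11.20. Ppp1r12b was 10.82 in knockout 1, against 11.07 to 11.18, and Ppp1r12a was 11.52 in knockout 5, against 11.72 to 11.78. Myl9 was 9.60 in control 3, against 10.11 to 10.23.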

How the results depend on the processing

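No light chain probe set was called under any alternative run: the count stayed at 0 of 7 (0 of 6 with the filter at 6, which drops Myl6b). Myl2 and Myl6b kept a lower and Mylpf a higher value in knockouts throughout, but Myl6b was -0.0166 without control 3, -0.0341 without knockout 5 and -0.505 without knockout 3. Signs near 0 turned: Myl1 was -0.0068 after quantile normalization. The dimmest Myl3 probe set was -0.0055 after quantile normalization, -0.12 with array weights, -0.0209 without the 3 arrays of highest hybridisation controls and -0.0777 to 0.133 with each array left out. The next brightest Myl3 set was 0.0035 after median centring, 0.0028 with the hybridisation control covariate and -0.122 to 0.118 with each array left out, and the brightest Myl3 set was -0.13 to 0.0547 with each array left out, above 0 without knockout 1 and without control 5. Over all probe sets the count of 21 (11 higher and 10 lower) became 11 with no filter, 36 after quantile normalization, 58 with a variance trend and robust fit, 67 with array weights, 99 with the covariate and 5 without the 3 arrays. It was 1 to 17 with each array left out: 2, 2, 1, 1 and 17 without knockout 1 to 5, and 14, 3, 2, 1 and 1 without control 1 to 5. With the replicate number as a block it was 1, and Myl2 had an adjusted p of 0.776. Deviations of same-numbered arrays correlated at r of -0.514, 0.133, 0.618, -0.2 and 0.188. Since these were not all above 0.1, the numbers were not taken to pair the mice. Myl4 passed with the trend and robust fit together (-1.12, adjusted p = 0.0442) and with array weights (-1.22, adjusted p = 0.0319) and otherwise did not. The causes were not tested.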

Other observations

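Among markers of cardiac and developing muscle, Actc1, the cardiac actin that skeletal muscle expresses during development, had 13.91, 14.39, 13.92, 14.37 and 14.51 in knockouts, against 12.88, 14.36, 13.80, 13.34 and 12.53 in controls. The difference was 0.83 ± 0.32 (SE, n = 5 each, limma adjusted p = 0.568), and control 2 lay among the knockouts. Tnnt2, the cardiac and embryonic troponin T, had 5.17, 7.21, 7.41, 6.90 and 6.63 in knockouts, against 7.91, 7.90, 6.92, 7.32 and 8.37 in controls, a difference of -1.02 ± 0.43 (SE, n = 5 each, limma adjusted p = 0.607). Like Myl2, it was lowest in knockout 1 and highest in control 5. A second tested Tnnt2 probe set had -0.76 (limma adjusted p = 0.744), and another averaged 2.15 in both groups, below the filter. Neither Actc1 nor Tnnt2 passed the threshold, and both genes are named after their values were seen.

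Within an array, the log2 intensity of Myl2 minus that of the brightest Myl3 probe set was -0.08, -0.05, -0.10, -0.22 and -0.34 in knockouts 1 to 5, against -0.09, 0.01, 0.15, 0.07 and 0.00 in controls 1 to 5. It averaged -0.16 ± 0.122 in knockouts and 0.03 ± 0.0866 in controls (SD, n = 5 each). Only knockouts 1 and 2 reached the range of the controls. This pattern was seen after the members' values and was not tested, and the level of this difference depends on the probes.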
